A study of Homo sapiens with 6 samples.

Results

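Gene expression in U266, an established human multiple myeloma line, was set against that in RPMI8226 and KMS11, 2 further lines of the same disease. The U266 members are 2 of the 6 arrays of the series, taken by the cell line label. Each line contributed 1 array 48 h after transfection with 100 nM of a scrambled control from Ambion and 1 array 48 h after transfection with 100 nM of a miR-10a mimic from the same maker, both delivered with HiPerFect. All 6 cultures were therefore transfected, all grew in RPMI1640 with heat-inactivated fetal bovine serum, and no label speaks of separate cultures of a line. P-values here thus measure only the spread between the 2 arrays of a line, which differ in treatment, and a line is 1 cell population and not a sample of patients. The cell line field of the labels spells RPMI8226 as RPI8226, while the sample titles give the usual name. Total RNA was read on Affymetrix Human Gene 2.0 ST arrays, and every level below is the deposited log2 value of 1 probe set per gene. Where 2 values are given for a line, the first is its control array and the second its mimic array.

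Multiple myeloma is a cancer of plasma cells, the antibody-secreting end stage of the B cell lineage. Its founding lesions often place an oncogene beside an immunoglobulin enhancer, and the gene so activated (a D-type cyclin, MAF, or FGFR3 with NSD2) divides the disease into groups. U266 is a textbook line of the cyclin D1 group and is known to respond to its own interleukin 6, RPMI8226 carries a MAF translocation, and KMS11 carries both MAF and FGFR3 with NSD2 translocations. Cyclins D1, D2 and D3 bind CDK4 or CDK6, and the complex phosphorylates the RB protein, which then releases E2F factors for entry into S phase.

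U266 stood farthest above both other lines in CD180, SLAMF6, CCL3L1 and CCR2, genes of lymphocyte receptors and chemokine signalling, and farthest below them in CERS6, DSG2 and IQGAP2, with MAF and MYC among the 15 lowest. By pathway, 14 of 30 interferon-induced genes and 8 of 20 genes of cholesterol synthesis and uptake were higher in U266, while 7 of 18 NF-kB genes, 6 of 12 p53 pathway genes and 8 of 22 genes of the unfolded protein response were lower. List counts cover only members with a named probe set, 606 of the 1036 symbols listed. In the fit with cell line and treatment as terms, a gene was called when it differed in the same direction from each other line at an adjusted p under 0.05 (limma, Benjamini-Hochberg over all 14884 named genes). Each array reads the RNA of a whole culture, so fewer cells expressing a gene and less of its RNA per cell cannot be told apart. The adjusted p printed for a gene is the larger of the 2, and the SE is that of a difference between 2 lines. U266 stood higher than both lines for 1648 genes (11.1%) and lower for 1368 (9.19%). By the same rule RPMI8226 stood apart upward for 9.72% and downward for 10.6% of genes, and KMS11 for 11.1% and 6.69%. With a difference of at least 2-fold from each line, 479 genes (3.22%) were higher and 386 (2.59%) lower in U266. Single contrasts called 39.0% of genes between U266 and RPMI8226 and 37.1% between U266 and KMS11. Among protein-coding genes whose highest line mean reached the median gene (7539 genes), 17.1% were higher and 15.9% lower in U266, which is the nearer background for the lists of well expressed genes below. When the other 4 arrays were pooled into 1 group, so that the difference between RPMI8226 and KMS11 counted as spread, 654 genes (4.39%) were higher and 461 (3.10%) lower, and all of them were among the calls above. The arrays of U266 correlated at 0.994 over genes with each other, at 0.9 to 0.905 with RPMI8226 and at 0.917 to 0.921 with KMS11. A different response of U266 to the mimic was called for 0 genes (0%; limma, interaction term), with 911 at an unadjusted p under 0.05 and a smallest adjusted p of 0.748. That fit had 1 residual degree of freedom, with 1 array per line and treatment. It could miss real differences, so 0 calls do not show an equal response. At equal treatment, 511 genes were at least 2-fold above both lines and 389 at least 2-fold below among the 3 control arrays, and 472 and 401 among the 3 mimic arrays.

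**Figure D1:**
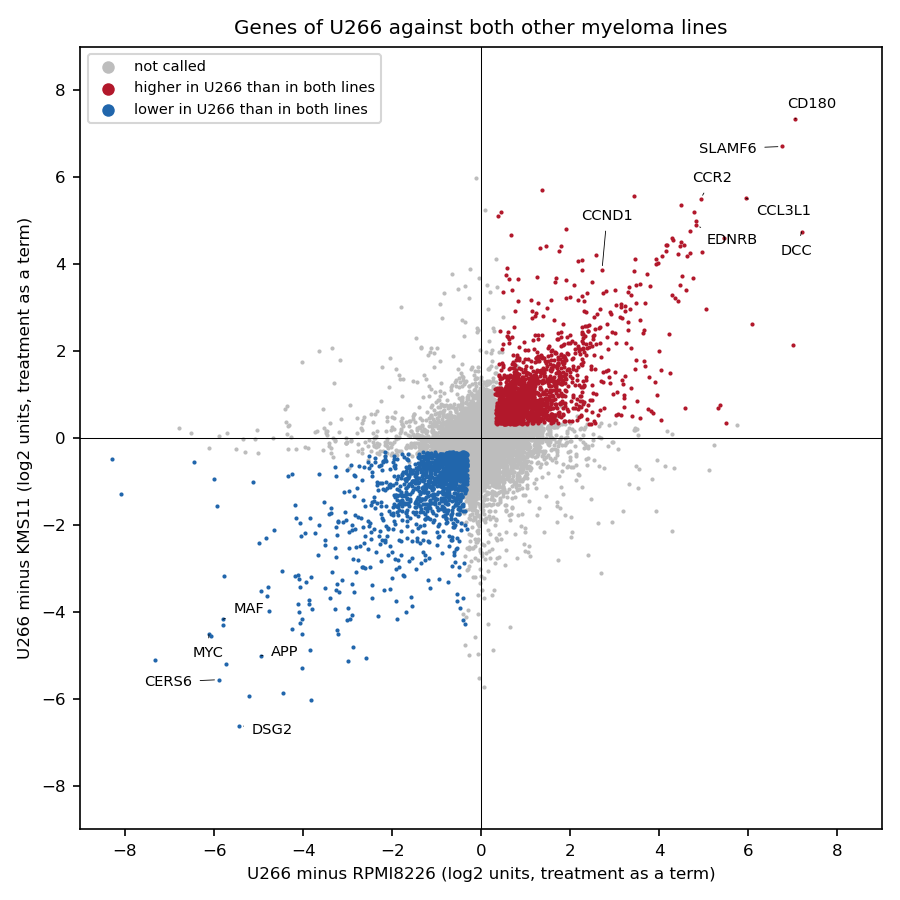
Difference of U266 from RPMI8226 (x axis, log2 units) and from KMS11 (y axis, log2 units) for each named gene, with treatment as a term; red points were called higher than both lines and blue points lower, and 11 of the 14884 genes are not drawn. CD180 and SLAMF6 lie farthest along the upper diagonal, and CERS6 and DSG2 far down the lower one.

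The 5 genes that mark the line here, CCND1, CD180, SLAMF6, CCR2 and EDNRB, were chosen with these data known and their levels are a description. CCND1, which encodes cyclin D1, read 9.98 and 10.00 in U266, 7.22 and 7.33 in RPMI8226 and 6.13 and 6.10 in KMS11. U266 was highest in both arrays, and the other lines still lay above the median gene, at 4.7 log2 units. CD180, a leucine-rich repeat relative of the Toll-like receptors found on B cells, read 10.02 and 10.09 in U266, 3.13 and 2.87 in RPMI8226 and 2.76 and 2.66 in KMS11, a 133-fold separation from the nearer line. SLAMF6, a lymphocyte surface receptor that binds itself on neighbouring cells, read 9.22 and 9.32 in U266, 2.65 and 2.38 in RPMI8226 and 2.54 and 2.58 in KMS11. CCR2, the receptor for the monocyte-attracting chemokine CCL2, read 8.71 and 8.52 in U266, 3.64 and 3.73 in RPMI8226 and 3.31 and 2.91 in KMS11. EDNRB, the endothelin B receptor, read 8.11 and 7.98 in U266, 3.19 and 3.27 in RPMI8226 and 3.18 and 3.13 in KMS11. For all 5 genes both U266 arrays lay above all 4 arrays of the other lines. The 6-array patterns most like that of CCND1 were those of HACD3, MERTK, CHODL, CCDC117 and SNX13 (Pearson r of 0.9985 to 0.9992 over 6 arrays of 3 lines, so in effect 3 levels).

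**Figure D2:**
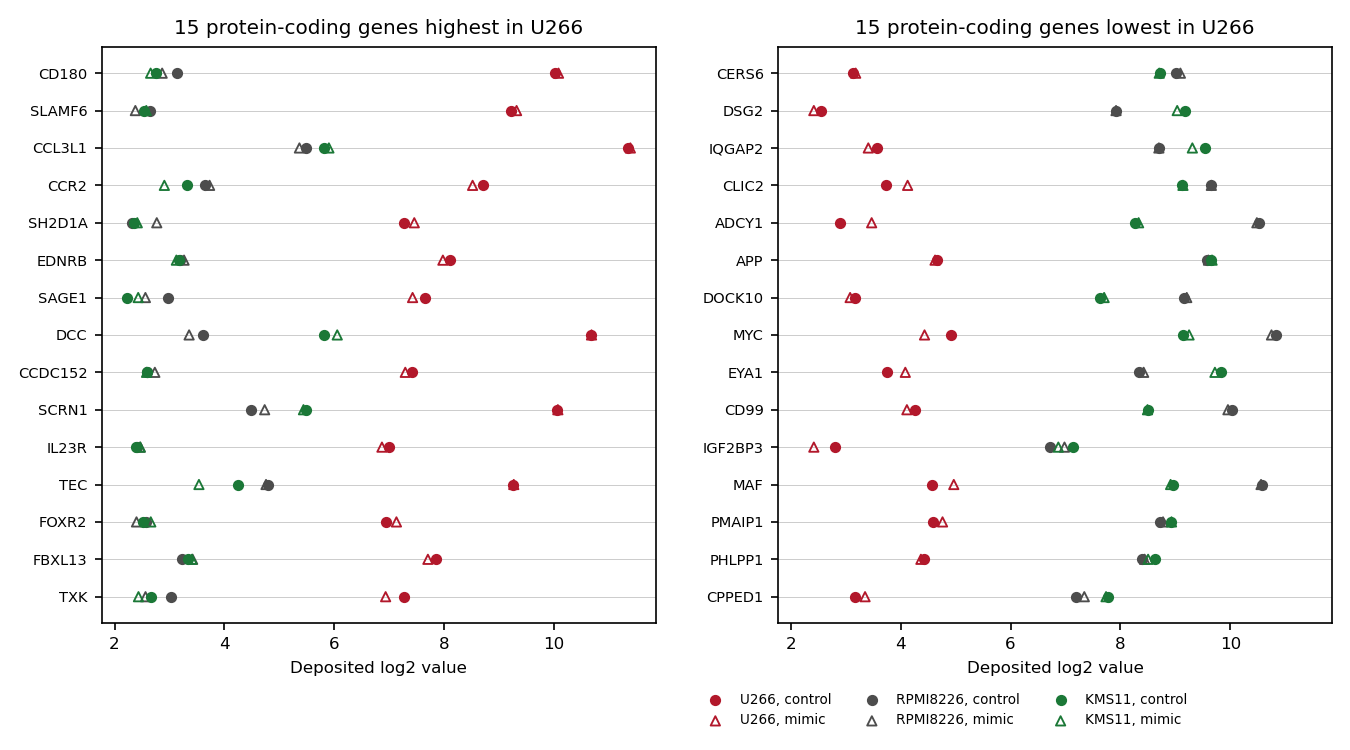
Deposited log2 value (x axis) in each of the 6 arrays for the 15 protein-coding genes farthest above (left) and below (right) the nearer of the other lines; filled circles are control arrays, open triangles mimic arrays, and colours are lines. Both U266 arrays lie apart from the other 4 in every one of the 30 genes, which follows from their choice by size of difference.

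The 15 protein-coding genes farthest above both lines held surface receptors, lymphocyte signalling genes and genes best known from germ cells or brain. After CD180 and SLAMF6 came CCL3L1, a chemokine that attracts monocytes and T cells, at 11.35 and 11.39 in U266, 5.49 and 5.37 in RPMI8226 and 5.81 and 5.90 in KMS11. Its sequence is nearly that of CCL3, so signal may be shared between them. SH2D1A, the adaptor protein (SAP) that binds the tails of SLAM receptors, read 7.28 and 7.46 in U266, 2.32 and 2.77 in RPMI8226 and 2.35 and 2.41 in KMS11, and was 4.82 above RPMI8226 and 4.99 above KMS11 (SE 0.12, adjusted p = 4.89e-06). TEC and TXK, which encode 2 kinases of the same family, lie next to each other in the genome. TEC read 9.26 and 9.27 in U266, 4.79 and 4.76 in RPMI8226 and 4.25 and 3.54 in KMS11. TXK read 7.26 and 6.94 in U266, 3.03 and 2.56 in RPMI8226 and 2.67 and 2.44 in KMS11. IL23R, a subunit of the interleukin 23 receptor, read 7.00 and 6.87 in U266, 2.41 and 2.47 in RPMI8226 and 2.38 and 2.47 in KMS11, with the other 4 arrays close together. DCC, the netrin receptor of growing axons, read 10.67 and 10.69 in U266, 3.61 and 3.36 in RPMI8226 and 5.81 and 6.06 in KMS11, so that KMS11 held an intermediate level. SAGE1, a cancer-testis antigen gene, read 7.65 and 7.43 in U266, 2.97 and 2.56 in RPMI8226 and 2.23 and 2.43 in KMS11. CCDC152, SCRN1, FOXR2 and FBXL13 completed the set, at 21.3-fold to 25.8-fold above the nearer line. Across these 15 and the 15 lowest genes, the control and mimic arrays of U266 differed by at most 0.58 log2 units.

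The genes farthest below both lines included the oncogenes MAF and MYC, an apoptosis gene and several genes of adhesion and the cell surface. CERS6, a ceramide synthase, read 3.13 and 3.18 in U266, 9.01 and 9.09 in RPMI8226 and 8.72 and 8.71 in KMS11 and was -5.90 from RPMI8226 and -5.56 from KMS11 (SE 0.10, adjusted p = 2.76e-06). DSG2, a cadherin of desmosomes, read 2.55 and 2.42 in U266, 7.91 and 7.92 in RPMI8226 and 9.17 and 9.03 in KMS11. MAF, the transcription factor activated by translocation in the other 2 lines, read 4.57 and 4.96 in U266, 10.57 and 10.56 in RPMI8226 and 8.96 and 8.91 in KMS11. MYC read 4.92 and 4.43 in U266, 10.83 and 10.75 in RPMI8226 and 9.14 and 9.25 in KMS11, and was -6.11 from RPMI8226 and -4.52 from KMS11 (SE 0.16, adjusted p = 1.02e-05). APP, the amyloid precursor protein, read 4.66 and 4.62 in U266, 9.58 and 9.60 in RPMI8226 and 9.64 and 9.67 in KMS11, so the other 4 arrays lay close together. CD99, a surface glycoprotein, read 4.25 and 4.11 in U266, 10.02 and 9.96 in RPMI8226 and 8.50 and 8.49 in KMS11. PMAIP1, which encodes the pro-death BH3-only protein NOXA, read 4.58 and 4.76 in U266, 8.71 and 8.78 in RPMI8226 and 8.92 and 8.93 in KMS11. PHLPP1, a phosphatase that removes phosphate from AKT, read 4.42 and 4.37 in U266, 8.39 and 8.44 in RPMI8226 and 8.63 and 8.50 in KMS11. IQGAP2, CLIC2, ADCY1, DOCK10, EYA1, IGF2BP3 and CPPED1 were 16.2-fold to 37.1-fold below the nearer line. No array of the other lines reached down to a U266 array in any of these genes, which follows from their choice by size of difference.

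In the D cyclin and RB pathway list, CCND1 was the 1 member of 15 called higher and 6 were called lower (40%), with a median difference from the mean of the other lines of -0.52 log2 units against -0.04 over all genes. RB1, the gatekeeper of S phase, read 5.98 and 5.95 in U266, 9.38 and 9.55 in RPMI8226 and 8.44 and 8.42 in KMS11, and was -3.50 from RPMI8226 and -2.46 from KMS11 (SE 0.11, adjusted p = 2.16e-05). CDK6, a partner kinase of D cyclins, read 6.05 and 5.82 in U266, 8.51 and 8.28 in RPMI8226 and 9.68 and 9.56 in KMS11, and was -2.46 from RPMI8226 and -3.68 from KMS11 (SE 0.10, adjusted p = 1.42e-05). CCND2, the cyclin that MAF is known to activate, still read 8.58 and 8.44 in U266, 10.39 and 10.36 in RPMI8226 and 9.42 and 9.35 in KMS11, so it was lowest in U266 but well above the median gene. CDK4 was lower by a smaller step, -0.41 from RPMI8226 and -1.14 from KMS11 (SE 0.10, adjusted p = 0.0171). CDKN2A, an inhibitor of CDK4 and CDK6, was -0.99 from RPMI8226 and -0.97 from KMS11 (SE 0.12, adjusted p = 0.0011), and E2F3 was -0.96 from RPMI8226 and -0.87 from KMS11 (SE 0.10, adjusted p = 0.0011). CCND3 read 4.11 and 4.34 in U266, 4.41 and 4.26 in RPMI8226 and 4.70 and 4.74 in KMS11 and was not called. CCNE1, CCNE2, CDK2, E2F1, E2F2, RBL1 and RBL2 missed the threshold, or changed sign, against one of the lines. The call of CDK4 was lost without either RPMI8226 array or either U266 array.

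Of 13 MAF genes and reported MAF targets, 0 were higher and 4 were lower (30.8%), with a median of -0.78. Beside MAF and CCND2 these were DEPTOR, an inhibitor of mTOR, which was -1.06 from RPMI8226 and -1.28 from KMS11 (SE 0.10, adjusted p = 0.000406), and MAFG, a small MAF protein gene, which was -0.43 from RPMI8226 and -1.12 from KMS11 (SE 0.13, adjusted p = 0.0425). CX3CR1 at 3.17 and 3.66 in U266, 7.32 and 8.06 in RPMI8226 and 3.53 and 3.25 in KMS11 and SPP1 at 3.01 and 3.26 in U266, 5.54 and 5.42 in RPMI8226 and 3.15 and 3.35 in KMS11 were high in RPMI8226 alone, and neither was called. CCR1 read 6.87 and 7.01 in U266, 8.27 and 8.30 in RPMI8226 and 4.84 and 4.90 in KMS11. It was -1.34 from RPMI8226 but 2.07 above KMS11, and so was not called. ARID5A, CEACAM1, MAFA, MAFF, RND3 and TLR4 were not called either. Leaving out 1 array gave 3 to 5 lower members. The t(4;14) genes did not set U266 apart. FGFR3 read 3.56 and 3.78 in U266, 3.93 and 3.95 in RPMI8226 and 8.62 and 8.69 in KMS11 and NSD2 read 6.76 and 6.73 in U266, 6.67 and 6.73 in RPMI8226 and 7.87 and 7.77 in KMS11, with U266 level with RPMI8226 in both.

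In the MYC family and MAX network, MYC pairs with MAX on DNA and MXD proteins compete for MAX. Of its 11 members 3 were higher (27.3%) and 5 lower (45.5%). MXD1 was -0.86 from RPMI8226 and -0.75 from KMS11 (SE 0.11, adjusted p = 0.00215), MXI1 was -0.59 from RPMI8226 and -1.99 from KMS11 (SE 0.10, adjusted p = 0.00411) and MNT was -0.52 from RPMI8226 and -0.71 from KMS11 (SE 0.13, adjusted p = 0.0182). MAX itself was -0.35 from RPMI8226 and -1.14 from KMS11 (SE 0.11, adjusted p = 0.0455). MLX, the partner of a parallel network, was 0.79 above RPMI8226 and 0.61 above KMS11 (SE 0.10, adjusted p = 0.00358). MXD3 was 0.50 above RPMI8226 and 0.64 above KMS11 (SE 0.10, adjusted p = 0.00808), but 0.25 from the nearer line with an adjusted p of 0.155 when the mean of its probe sets was used. MGA was 0.43 above RPMI8226 and 1.37 above KMS11 (SE 0.10, adjusted p = 0.0162). The steps other than MYC were small, and the call of MAX was lost whichever array was left out. MGA lost its call without the RPMI8226 control or either U266 array, MXD3 without either of those control arrays, and MNT without the RPMI8226 control or the U266 mimic array. The higher count was 1 without the RPMI8226 or the U266 control array, and the lower count was 3 without the RPMI8226 control or the U266 mimic array. MYCL, the family member that U266 is known to express, was not analysed here.

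Of 16 plasma cell genes, 4 were higher and 5 lower, with a median of -0.06. Both shares lay above the 17.1% and 15.9% of well expressed protein-coding genes, an excess that was not tested over the list. IRF4, the factor myeloma cells depend on, read 10.40 and 10.26 in U266, 10.52 and 10.55 in RPMI8226 and 10.83 and 10.89 in KMS11. XBP1, which drives the secretory programme, read 9.55 and 9.55 in U266, 9.34 and 9.34 in RPMI8226 and 9.65 and 9.65 in KMS11. These 2 genes were named after their values were seen, and neither was called. SDC1 (CD138), the surface marker of plasma cells, read 9.49 and 9.48 in U266, 7.30 and 7.16 in RPMI8226 and 5.52 and 5.72 in KMS11. SLAMF7, the target of an antibody used in myeloma, read 7.73 and 7.23 in U266, 3.33 and 3.79 in RPMI8226 and 3.47 and 3.27 in KMS11. CD44, the hyaluronan receptor, read 7.11 and 6.91 in U266, 3.46 and 3.64 in RPMI8226 and 2.91 and 2.85 in KMS11. CD28, a costimulatory receptor, was higher by a small step, 0.34 above RPMI8226 and 1.12 above KMS11 (SE 0.10, adjusted p = 0.0354), and that call was lost when any 1 array was left out. In the other direction, CD38, also an antibody target in myeloma, read 4.11 and 3.80 in U266, 9.99 and 9.90 in RPMI8226 and 4.88 and 4.92 in KMS11, so that RPMI8226 alone was high. MZB1, a chaperone of antibody assembly, read 6.18 and 6.11 in U266, 10.03 and 9.96 in RPMI8226 and 7.92 and 8.06 in KMS11. SEC11C, of the signal peptidase, was -1.31 from RPMI8226 and -2.16 from KMS11 (SE 0.10, adjusted p = 0.00014), and DERL3, of ER-associated degradation, was -1.92 from RPMI8226 and -1.02 from KMS11 (SE 0.12, adjusted p = 0.00102). Of 17 listed immunoglobulin genes 2 had a named probe set. IGLL5 of these was higher, at 8.37 and 8.61 in U266, 6.06 and 6.08 in RPMI8226 and 6.30 and 6.51 in KMS11.

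Of 23 B cell genes, 4 were higher (17.4%) and 3 lower (13.0%), with a median of -0.17. These shares were near the 17.1% and 15.9% of well expressed protein-coding genes. POU2F2 (OCT2), an octamer factor of B cells, read 6.40 and 6.19 in U266, 3.21 and 3.32 in RPMI8226 and 3.23 and 3.23 in KMS11. CD53, a tetraspanin of leukocytes, read 9.55 and 9.56 in U266, 8.16 and 8.21 in RPMI8226 and 3.76 and 3.91 in KMS11. CD52 was 1.57 above RPMI8226 and 1.91 above KMS11 (SE 0.14, adjusted p = 0.000316), and BCL6, the germinal centre repressor, was 1.04 above RPMI8226 and 1.25 above KMS11 (SE 0.10, adjusted p = 0.000396). BCL11A read 4.49 and 4.69 in U266, 6.78 and 6.94 in RPMI8226 and 6.96 and 7.09 in KMS11. CR2 was -1.65 from RPMI8226 and -1.51 from KMS11 (SE 0.14, adjusted p = 0.000411), and IRF8 was -2.15 from RPMI8226 and -0.49 from KMS11 (SE 0.15, adjusted p = 0.044), a call lost without either RPMI8226 array or without the mimic array of KMS11 or U266. Of 19 T cell, NK cell and myeloid genes, 0 were called in either direction (limma; 2 at an unadjusted p under 0.05 against both lines), and their mean level was 3.88 and 3.94 in U266, 4.4 and 4.33 in RPMI8226 and 3.95 and 3.99 in KMS11. Of 7 stromal and endothelial genes, PECAM1, an adhesion molecule that leukocytes also carry, was higher, at 6.08 and 5.77 in U266, 2.91 and 2.62 in RPMI8226 and 3.02 and 3.31 in KMS11, while the mean of the list lay between 2.95 and 3.49 in all 6 arrays.

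The SLAM family, receptors of lymphocytes that signal through SAP, had 4 of 10 members higher and 0 lower. The median was 0.66 against -0.04 over all genes, but 1.25 from RPMI8226 and only 0.03 from KMS11. Of the 10 members 5 lay above the mean of the other lines. The 4 higher members were SLAMF6, which is also a marker chosen with these data known, SH2D1A, SLAMF7 and CD48. CD48, the ligand of 2B4, read 8.47 and 8.51 in U266, 6.04 and 6.01 in RPMI8226 and 6.88 and 6.79 in KMS11. The same 4 were called without any 1 array and with the other lines pooled. Among 21 members of the CD180 and Toll-like receptor list, 2 were higher and 2 lower, which is near the background. MYD88, the adaptor below most Toll-like receptors, was 0.98 above RPMI8226 and 0.90 above KMS11 (SE 0.15, adjusted p = 0.00385). TLR3, the receptor for double-stranded RNA, was -1.37 from RPMI8226 and -1.56 from KMS11 (SE 0.12, adjusted p = 0.000257), and UNC93B1, which carries endosomal receptors to their place, was -2.16 from RPMI8226 and -0.42 from KMS11 (SE 0.13, adjusted p = 0.0468), a call lost without either KMS11 array or the U266 control array.

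Chemokine genes as a list stood near the background, with 6 of 49 higher (12.2%) and 2 lower. CCL3 read 9.11 and 9.46 in U266, 4.35 and 4.29 in RPMI8226 and 4.98 and 5.03 in KMS11, and CCL4 read 5.27 and 4.98 in U266, 3.33 and 3.52 in RPMI8226 and 3.31 and 3.62 in KMS11. CXCR4, the receptor that holds plasma cells in bone marrow, was high in all lines and highest in U266, at 11.46 and 11.41 in U266, 9.55 and 9.62 in RPMI8226 and 9.61 and 9.69 in KMS11. CXCL10, an interferon-induced chemokine, read 2.50 and 2.15 in U266, 10.61 and 10.61 in RPMI8226 and 2.83 and 2.78 in KMS11, so it was high in RPMI8226 alone, and its call was lost without either KMS11 array or the U266 mimic array. CCL5 was -0.75 from RPMI8226 and -0.64 from KMS11 (SE 0.10, adjusted p = 0.00334).

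Of 22 interleukin 6, JAK and STAT genes, 3 were higher (13.6%) and 4 lower (18.2%). Over all genes the shares were 11.1% and 9.19%. Among well expressed protein-coding genes they were 17.1% and 15.9%, and the list stood near these. IL6R, the ligand-binding receptor chain, read 10.21 and 10.29 in U266, 7.94 and 8.02 in RPMI8226 and 6.43 and 5.88 in KMS11. SOCS3, a feedback inhibitor that STAT3 induces, read 7.28 and 6.90 in U266, 4.93 and 4.87 in RPMI8226 and 5.81 and 5.91 in KMS11. JAK3 was 1.52 above RPMI8226 and 0.72 above KMS11 (SE 0.12, adjusted p = 0.00477). PIM1, a survival kinase also known as a STAT target, was -1.30 from RPMI8226 and -1.24 from KMS11 (SE 0.10, adjusted p = 0.000201), and JAK1, the kinase bound to the shared receptor chain, was -1.19 from RPMI8226 and -1.06 from KMS11 (SE 0.10, adjusted p = 0.000461). SOCS1 was -1.54 from RPMI8226 and -0.99 from KMS11 (SE 0.13, adjusted p = 0.00192). With the other lines pooled, the adjusted p was 0.0843 for IL6R and 0.0863 for SOCS3, and 2 of the 4 lower members were called. STAT5B, the fourth lower member, was -0.39 from RPMI8226 and -0.61 from KMS11 (SE 0.10, adjusted p = 0.0266), a call lost without either array of RPMI8226 or of U266.

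Genes of NF-kB, the inflammatory and survival factor that many myelomas activate by mutation, were lower in 7 of 18 (38.9%) and higher in 2, with a median of -0.68. NFKB1, the p105 precursor of the p50 subunit, read 7.23 and 7.14 in U266, 8.57 and 8.56 in RPMI8226 and 8.79 and 8.71 in KMS11 and was -1.38 from RPMI8226 and -1.56 from KMS11 (SE 0.10, adjusted p = 0.000114). RELB was -0.99 from RPMI8226 and -1.29 from KMS11 (SE 0.10, adjusted p = 0.000505) and NFKB2 was -0.93 from RPMI8226 and -0.88 from KMS11 (SE 0.10, adjusted p = 0.00106), both partners in the noncanonical pathway. CYLD, a deubiquitinase that restrains NF-kB, was -1.04 from RPMI8226 and -0.71 from KMS11 (SE 0.11, adjusted p = 0.00366). CD70, a TNF family ligand, was 1.12 above RPMI8226 and 3.18 above KMS11 (SE 0.10, adjusted p = 0.000278), and CHUK, the IKK alpha kinase, was 0.83 above RPMI8226 and 1.32 above KMS11 (SE 0.10, adjusted p = 0.000939). Leaving out 1 array gave 6 or 7 lower members, and pooling the other lines gave 4.

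The BCL2 family had 2 higher (11.8%) and 4 lower (23.5%) members of 17, beside 17.1% and 15.9% of well expressed protein-coding genes. BCL2 read 8.25 and 8.32 in U266, 9.92 and 9.96 in RPMI8226 and 9.20 and 9.22 in KMS11 and was -1.66 from RPMI8226 and -0.92 from KMS11 (SE 0.10, adjusted p = 0.000652). Beside PMAIP1, the BH3-only genes BMF and BBC3 (PUMA) were lower: BMF was -1.18 from RPMI8226 and -1.11 from KMS11 (SE 0.11, adjusted p = 0.000588) and BBC3 was -1.49 from RPMI8226 and -0.88 from KMS11 (SE 0.10, adjusted p = 0.00087). BCL2L1, which encodes the survival protein BCL-XL, was 0.48 above RPMI8226 and 1.72 above KMS11 (SE 0.12, adjusted p = 0.0208). That call was lost without either RPMI8226 array or without the U266 mimic array, while the 4 lower members were called without any 1 array. With the other lines pooled 2 of the 4 were called, the adjusted p being 0.0885 for BCL2 and 0.0732 for BBC3. In the p53 pathway list, 6 of 12 were lower (50%) and 0 higher, with a median of -0.81. SESN2, a stress-induced inhibitor of mTORC1, read 7.35 and 7.50 in U266, 9.47 and 9.55 in RPMI8226 and 9.53 and 9.44 in KMS11. MDM4, an inhibitor of p53, was -1.93 from RPMI8226 and -1.36 from KMS11 (SE 0.11, adjusted p = 0.000239), and TP53INP1 was -0.46 from RPMI8226 and -1.36 from KMS11 (SE 0.10, adjusted p = 0.0117), a call lost without the mimic array of RPMI8226 or U266. The count fell to 3 without the U266 mimic array and to 2 with the other lines pooled.

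Interferon-induced genes formed the list with the largest number of higher members: 14 of 30 (46.7%) were higher and 1 was lower, with a median of 0.76 and 8 of them at least 2-fold above both lines. USP18, a protease that takes ISG15 off proteins and damps interferon signalling, read 8.81 and 8.09 in U266, 4.95 and 5.38 in RPMI8226 and 5.97 and 5.95 in KMS11. IFIT3, of a family that binds viral RNA, read 7.12 and 6.79 in U266, 3.09 and 2.84 in RPMI8226 and 4.88 and 5.04 in KMS11. IFIT1 read 4.89 and 3.69 in U266, 2.01 and 2.20 in RPMI8226 and 2.23 and 2.33 in KMS11. IFI44L read 4.73 and 4.12 in U266, 2.59 and 2.70 in RPMI8226 and 2.45 and 2.59 in KMS11. The U266 control array exceeded the U266 mimic array in these 4 genes, and both exceeded the other 4 arrays. Over the 14 higher members, the mimic array was below the control array in 11, with a median change of -0.57 in U266 against 0.07 in RPMI8226 and 0.12 in KMS11, a change that was not tested over the list. Counts of higher members were 10 without the U266 control array, 15 without the U266 mimic array, 9 without the KMS11 control array, 10 without the RPMI8226 control array and 5 with the other lines pooled. EPSTI1 was the lower member, -1.45 from RPMI8226 and -0.93 from KMS11 (SE 0.12, adjusted p = 0.00161).

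**Figure D3:**
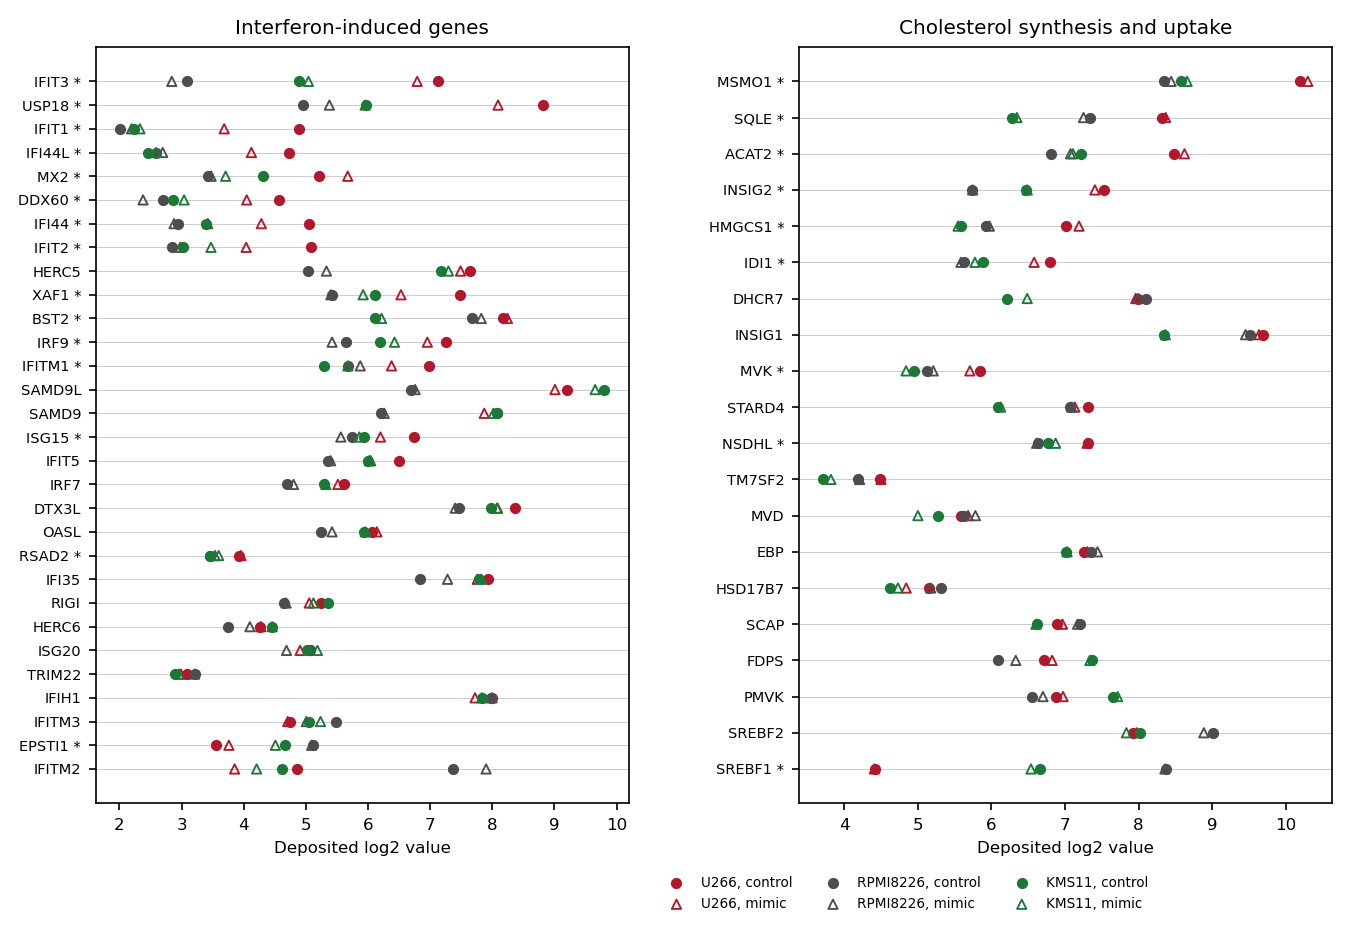
Deposited log2 value (x axis) in each array for the 30 interferon-induced genes (left) and the 20 genes of cholesterol synthesis and uptake (right), ordered by the difference of U266 from the mean of the other lines; circles are control arrays, triangles mimic arrays, and stars mark called genes. The U266 arrays lie to the right in the upper rows of both panels, and for IFIT1 they are as far apart as 4.89 and 3.69.

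Promoters of interferon-induced genes are known for a repeated GAAA core, and the search for it was added after the data were seen. The promoters of the 3 higher members that differ most and hold that core are printed to show it: the 300 bases from 250 before to 50 after the start site, from RefSeq on GRCh38.p14, as reference sequence and not that of the lines. Capitals mark GAAANNGAAA on either strand, so that TTTC in capitals is the core read on the other strand. IFIT1 lies at chr10:89392373-89392672, IFIT3 at chr10:89327747-89328046 and IFI44L at chr1:78620198-78620497, all on the plus strand.
IFIT1: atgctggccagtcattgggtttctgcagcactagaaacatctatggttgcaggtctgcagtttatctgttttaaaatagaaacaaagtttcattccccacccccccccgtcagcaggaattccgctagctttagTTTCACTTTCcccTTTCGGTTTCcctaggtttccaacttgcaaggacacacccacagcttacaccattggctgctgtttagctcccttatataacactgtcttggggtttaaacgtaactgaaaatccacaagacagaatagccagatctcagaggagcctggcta
IFIT3: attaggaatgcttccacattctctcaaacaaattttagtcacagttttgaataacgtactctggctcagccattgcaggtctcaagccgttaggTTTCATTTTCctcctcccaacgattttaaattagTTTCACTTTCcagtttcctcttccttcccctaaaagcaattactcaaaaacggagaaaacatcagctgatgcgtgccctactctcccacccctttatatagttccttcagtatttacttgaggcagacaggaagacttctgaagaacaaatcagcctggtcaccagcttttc
IFI44L: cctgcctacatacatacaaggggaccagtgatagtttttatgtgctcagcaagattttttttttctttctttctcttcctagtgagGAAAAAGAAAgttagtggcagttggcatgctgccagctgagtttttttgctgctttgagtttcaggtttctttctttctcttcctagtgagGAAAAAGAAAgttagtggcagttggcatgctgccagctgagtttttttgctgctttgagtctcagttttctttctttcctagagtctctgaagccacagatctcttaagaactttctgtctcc
The 2 marked stretches of IFIT1 and of IFIT3 read on the other strand, and those of IFI44L on the printed strand. Of all 35116 promoters in the table, 3.57% held the core. Of the 30 listed genes 23 had a promoter there and 17 of these held it (73.9%). It was present in 9 of the 11 called higher in U266 (81.8%) and in 8 of the 12 others (66.7%).

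Cholesterol synthesis and uptake had 8 of 20 members higher (40%) and 1 lower, with a median of 0.61. MSMO1, a sterol demethylating enzyme, read 10.20 and 10.30 in U266, 8.35 and 8.44 in RPMI8226 and 8.58 and 8.66 in KMS11 and was 1.85 above RPMI8226 and 1.63 above KMS11 (SE 0.10, adjusted p = 7.26e-05). HMGCS1, which makes the substrate of HMG-CoA reductase, read 7.01 and 7.19 in U266, 5.92 and 5.97 in RPMI8226 and 5.59 and 5.55 in KMS11. ACAT2, which joins the first acetyl units, was 1.61 above RPMI8226 and 1.39 above KMS11 (SE 0.12, adjusted p = 0.00032), and SQLE, the squalene epoxidase, was 1.05 above RPMI8226 and 2.03 above KMS11 (SE 0.10, adjusted p = 0.000415). The lower member was SREBF1, which encodes SREBP1, a sterol-regulated activator of lipid synthesis, at 4.42 and 4.41 in U266, 8.37 and 8.36 in RPMI8226 and 6.66 and 6.54 in KMS11. Leaving out 1 array gave 7 or 8 higher members, and pooling the other lines gave 4.

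Hypoxia and glycolysis genes were higher in 7 of 21 (33.3%) and lower in 3, with a median of 0.14. BNIP3, a mitophagy receptor induced by low oxygen, read 8.24 and 8.22 in U266, 6.15 and 5.97 in RPMI8226 and 4.19 and 4.14 in KMS11. EGLN1 (PHD2), the oxygen sensor that marks HIF for degradation, was 1.91 above RPMI8226 and 1.47 above KMS11 (SE 0.10, adjusted p = 0.000134). The glycolytic genes HK1 and PGAM1 were also higher: HK1 was 1.82 above RPMI8226 and 1.43 above KMS11 (SE 0.13, adjusted p = 0.000332) and PGAM1 was 1.23 above RPMI8226 and 1.84 above KMS11 (SE 0.10, adjusted p = 0.000193). LDHB was -1.68 from RPMI8226 and -0.81 from KMS11 (SE 0.10, adjusted p = 0.00145), VEGFA was -0.79 from RPMI8226 and -0.87 from KMS11 (SE 0.10, adjusted p = 0.00124) and EPAS1, which encodes HIF-2 alpha, was -2.20 from RPMI8226 and -0.52 from KMS11 (SE 0.12, adjusted p = 0.0168). The count of higher members was 7 whichever array was left out. The call of EPAS1 was lost without either KMS11 array or the U266 control array. Glutathione and thioredoxin genes had 8 of 35 higher (22.9%) and 5 lower (14.3%), with a median of 0.02. These shares were near the 17.1% and 15.9% of well expressed protein-coding genes. GSTP1, a glutathione transferase often silenced by promoter methylation, read 7.93 and 8.08 in U266, 4.43 and 4.44 in RPMI8226 and 4.32 and 4.62 in KMS11, with both other lines low. The higher count of that list fell to 3 without the U266 control array.

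Genes of the unfolded protein response and ER folding were lower in 8 of 22 (36.4%) and higher in 3, with 6 of the 8 at least 2-fold below both lines. TRIB3, a pseudokinase induced under ER and amino acid stress, read 5.91 and 5.92 in U266, 8.68 and 8.77 in RPMI8226 and 8.44 and 8.39 in KMS11. ATF3, a stress-induced factor, read 5.13 and 4.76 in U266, 7.33 and 7.46 in RPMI8226 and 8.42 and 8.23 in KMS11. DDIT4 (REDD1), an mTORC1 inhibitor, read 7.48 and 7.65 in U266, 10.16 and 10.27 in RPMI8226 and 9.63 and 9.61 in KMS11. ERN1, which encodes the sensor IRE1 that splices XBP1, read 7.36 and 7.28 in U266, 10.88 and 10.84 in RPMI8226 and 8.74 and 8.83 in KMS11. EIF2AK3, which encodes the sensor PERK, went the other way, 1.68 above RPMI8226 and 1.19 above KMS11 (SE 0.11, adjusted p = 0.000337). SEL1L was 1.83 above RPMI8226 and 0.54 above KMS11 (SE 0.10, adjusted p = 0.00664) and SDF2L1 was 0.59 above RPMI8226 and 0.59 above KMS11 (SE 0.12, adjusted p = 0.00936). The count of lower members was 8 whichever array was left out, whereas the higher count was 1, with SEL1L and SDF2L1 lost, without the KMS11 or the U266 control array. SDF2L1 was also lost without the RPMI8226 control array.

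MAPK output and immediate early genes were lower in 7 of 26 (26.9%) and higher in 2 (7.69%). DUSP6, a phosphatase that ERK signalling induces and that switches ERK off, read 5.99 and 5.99 in U266, 9.02 and 9.08 in RPMI8226 and 7.77 and 7.62 in KMS11. DUSP1 read 6.41 and 6.25 in U266, 8.91 and 9.01 in RPMI8226 and 8.96 and 8.54 in KMS11. FOSB was -1.56 from RPMI8226 and -2.14 from KMS11 (SE 0.19, adjusted p = 0.00107) and SPRY4, a feedback inhibitor, was -2.47 from RPMI8226 and -0.62 from KMS11 (SE 0.11, adjusted p = 0.0064), a call lost without the KMS11 mimic array. EGR1, an immediate early factor, read 8.95 and 8.90 in U266, 8.51 and 8.56 in RPMI8226 and 3.76 and 3.87 in KMS11, near its level in RPMI8226, and was called by a small step (adjusted p = 0.0258) that was lost without any 1 array of RPMI8226 or U266. The lower count was 4 without the U266 control array.

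TGF-beta and BMP genes had 5 of 14 lower (35.7%) and 2 higher (14.3%). Receptor-regulated SMAD1 was -1.28 from RPMI8226 and -2.01 from KMS11 (SE 0.16, adjusted p = 0.0013), SMAD2 was -0.73 from RPMI8226 and -1.43 from KMS11 (SE 0.10, adjusted p = 0.00155), the shared SMAD4 was -0.52 from RPMI8226 and -0.97 from KMS11 (SE 0.10, adjusted p = 0.00648) and the inhibitory SMAD7 was -0.67 from RPMI8226 and -1.85 from KMS11 (SE 0.10, adjusted p = 0.00285). LTBP1, which holds latent TGF-beta in the matrix, read 9.43 and 9.45 in U266, 3.31 and 3.42 in RPMI8226 and 6.72 and 6.90 in KMS11, and the ligand BMP6 read 7.55 and 7.36 in U266, 5.67 and 5.62 in RPMI8226 and 5.64 and 5.76 in KMS11. With the other lines pooled, the adjusted p of these 4 SMAD genes was 0.058 to 0.234, as KMS11 lay farther from U266 than RPMI8226 did. The WNT list had 4 of 24 members higher and 4 lower (16.7% each), near the 17.1% and 15.9% of well expressed protein-coding genes. One of the 4 lower members, TCF4, is the gene of the basic helix-loop-helix factor E2-2 and not that of the WNT effector of the same name (TCF7L2). RNF43, a ligase that removes WNT receptors, read 6.45 and 6.31 in U266, 3.76 and 3.72 in RPMI8226 and 4.01 and 3.70 in KMS11, and LGR4, its R-spondin receptor, read 5.84 and 6.05 in U266, 2.83 and 3.02 in RPMI8226 and 3.74 and 3.77 in KMS11. The co-receptor LRP6 read 3.10 and 3.61 in U266, 6.51 and 6.75 in RPMI8226 and 7.40 and 7.16 in KMS11, and LRP5 was -2.22 from RPMI8226 and -1.03 from KMS11 (SE 0.10, adjusted p = 0.000558). ROR1 read 3.49 and 2.89 in U266, 5.07 and 5.08 in RPMI8226 and 7.38 and 7.34 in KMS11 while its relative ROR2 read 6.74 and 6.77 in U266, 3.91 and 4.21 in RPMI8226 and 5.44 and 5.44 in KMS11, so this pair of WNT5A receptors ran in opposite directions.

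Adhesion and matrix genes had 4 of 20 higher and 5 lower, both shares above the 17.1% and 15.9% of well expressed protein-coding genes. That excess was not tested over the list. FN1 (fibronectin) read 4.69 and 4.78 in U266, 12.84 and 12.81 in RPMI8226 and 5.97 and 6.05 in KMS11, a gene that RPMI8226 alone expressed strongly. EPCAM read 4.66 and 4.93 in U266, 8.72 and 8.95 in RPMI8226 and 6.98 and 7.13 in KMS11, CD47 was -1.30 from RPMI8226 and -1.71 from KMS11 (SE 0.11, adjusted p = 0.000211) and CD9 was -2.17 from RPMI8226 and -1.19 from KMS11 (SE 0.12, adjusted p = 0.000513). Of 6 cancer-testis antigen genes, 3 were higher and 0 lower. CTAG1A, which encodes NY-ESO-1 and has a near-identical copy that shares its signal, read 8.72 and 8.72 in U266, 4.15 and 4.47 in RPMI8226 and 4.42 and 4.56 in KMS11, and CTAG2 read 7.03 and 7.02 in U266, 4.20 and 4.23 in RPMI8226 and 3.84 and 3.43 in KMS11. PRAME was 0.60 above RPMI8226 and 0.42 above KMS11 (SE 0.12, adjusted p = 0.0358), and kept its call only when the RPMI8226 control array was the one left out. Among 33 HOX and TALE genes 1 was higher (3.03%) and 2 lower (6.06%), and 25 lay under the median gene in every line. HOXB9 read 4.34 and 4.80 in U266, 7.96 and 7.75 in RPMI8226 and 7.06 and 7.16 in KMS11 and MEIS2 was 0.87 above RPMI8226 and 0.77 above KMS11 (SE 0.12, adjusted p = 0.00299). CTSS, a protease that prepares MHC class II for peptide, read 4.71 and 4.56 in U266, 9.44 and 9.49 in RPMI8226 and 6.75 and 7.11 in KMS11.

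With the other lines pooled, lower members numbered 4 in the D cyclin list, 4 in the unfolded protein response list and 2 each in the MAF, MYC and MAPK lists, and higher members numbered 3 in the glutathione list and 2 in the plasma cell list. Of 33 cell cycle and DNA replication genes 4 were higher (12.1%) and 2 lower (6.06%). Beside this list and those that follow stand 11.1% and 9.19% of all genes, and 17.1% and 15.9% of well expressed protein-coding genes. The cell cycle median was 0.29 from the mean of the other lines, 0.74 from RPMI8226 and -0.03 from KMS11. KIF20A was the largest step upward, at 8.59 and 8.48 in U266, 5.16 and 5.80 in RPMI8226 and 7.52 and 7.41 in KMS11. Of 26 ribosomal protein genes 3 were higher (11.5%) and 1 lower (3.85%). Each of the 3 lost its call without the KMS11 control array or either U266 array. The IGF axis had 1 of 15 higher (6.67%) and EPH receptors and ephrins 1 of 21 in each direction (4.76%). Of 6 MHC class I and antigen processing genes 3 were higher and 1 lower. B2M was 0.39 above RPMI8226 and 0.46 above KMS11 (SE 0.10, adjusted p = 0.0208), MICB was 1.73 above RPMI8226 and 0.36 above KMS11 (SE 0.10, adjusted p = 0.032) and MICA was 0.95 above RPMI8226 and 0.34 above KMS11 (SE 0.11, adjusted p = 0.0462). TAPBP, a chaperone of peptide loading, was the lower member, -0.87 from RPMI8226 and -0.42 from KMS11 (SE 0.10, adjusted p = 0.0169). Each of the 4 lost its call without any 1 array of KMS11 or U266.

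**Figure D4:**
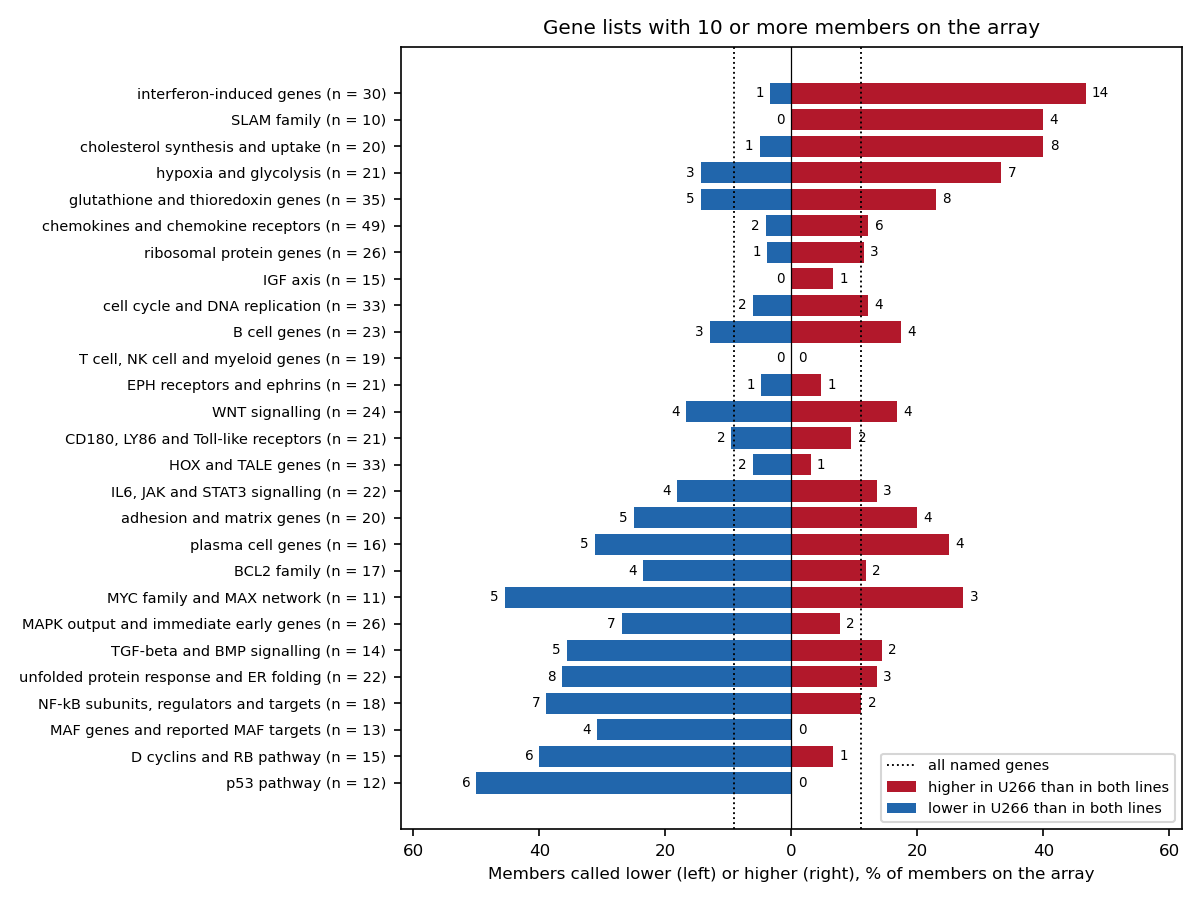
Share of the members of each list with 10 or more genes on the array that were called higher (red, to the right) or lower (blue, to the left) in U266 than in both other lines; the numbers are counts of genes and the dotted lines give all named genes (11.1% and 9.19%). Interferon-induced, SLAM and cholesterol genes lie at the top and p53 pathway, D cyclin and MAF genes at the bottom.

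Of 1072 microRNA genes, 23 (2.15%) were higher and 28 (2.61%) lower in U266, which is below the share over all genes. MIR3144 read 5.25 and 4.50 in U266, 2.63 and 2.46 in RPMI8226 and 2.23 and 2.37 in KMS11, and was 2.32 above RPMI8226 and 2.57 above KMS11 (SE 0.20, adjusted p = 0.000272). MIR550A2 read 5.43 and 5.29 in U266, 3.13 and 3.29 in RPMI8226 and 4.03 and 4.00 in KMS11. MIR628 read 4.31 and 3.90 in U266, 6.44 and 6.30 in RPMI8226 and 5.96 and 5.36 in KMS11, and MIR544B read 3.12 and 2.34 in U266, 4.56 and 3.73 in RPMI8226 and 4.07 and 3.63 in KMS11, where the control array of each line was above its mimic array. MIR29A was -0.78 from RPMI8226 and -1.84 from KMS11 (SE 0.20, adjusted p = 0.0246) and its call was lost without the U266 control array or either RPMI8226 array. MIR548H2, MIR598 and MIR4440 were called as well. These probe sets read the gene, and whether the signal comes from the primary transcript, the hairpin or the mature strand was not separated. The mature strands encoded by 4 of these genes are printed from RefSeq (GRCh38.p14) with the seed, bases 2 to 8 that pair with targets, in capitals, to show that no 2 share a seed.
hsa-miR-3144-5p: aGGGGACCaaagagauauauag
hsa-miR-3144-3p: aUAUACCUguucggucucuuua
hsa-miR-550a-5p: aGUGCCUGagggaguaagagccc
hsa-miR-550a-3p: uGUCUUACucccucaggcacau
hsa-miR-628-5p: aUGCUGACauauuuacuagagg
hsa-miR-628-3p: uCUAGUAAgaguggcagucga
hsa-miR-544b: aCCUGAGGuugugcauuucuaa
Among other non-coding genes, LINC00891 read 8.70 and 8.69 in U266, 4.71 and 4.40 in RPMI8226 and 4.26 and 4.54 in KMS11 and LINC01634 read 8.09 and 7.71 in U266, 3.02 and 3.55 in RPMI8226 and 3.91 and 3.49 in KMS11. HCP5, a transcript of the MHC class I region, read 4.79 and 4.98 in U266, 8.04 and 8.23 in RPMI8226 and 8.28 and 8.21 in KMS11, and KC6 read 2.91 and 2.62 in U266, 5.56 and 5.74 in RPMI8226 and 5.55 and 5.54 in KMS11.

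Called genes were spread unevenly over the chromosomes, a description added after the calls were seen. Over 11910 protein-coding genes with a chromosome in RefSeq, 12.2% were higher and 10.6% lower in U266. Of 351 genes of chromosome 15, 91 were higher (25.9%) and 16 lower, with a median difference from the mean of the other lines of 0.21 log2 units. Of 175 genes of chromosome 18, 8 were higher and 38 lower (21.7%), with a median of -0.21. The median of chromosome 15 was 0.17 against RPMI8226 and 0.16 against KMS11, and that of chromosome 18 was -0.17 and -0.23. Chromosome 14 had 20.3% and chromosome 19 had 18.2% of genes higher, and chromosome 16 had 16.5% lower. DSG2, BCL2, PMAIP1, PHLPP1, SEC11C, TCF4, SMAD2, SMAD4 and SMAD7, all lower, lie on chromosome 18. Members of the BCL2 family and TGF-beta lists thus share this chromosome. DCC and TYMS, which were called higher, lie on chromosome 18 too. DNA copy number was not analysed here.

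**Figure D5:**
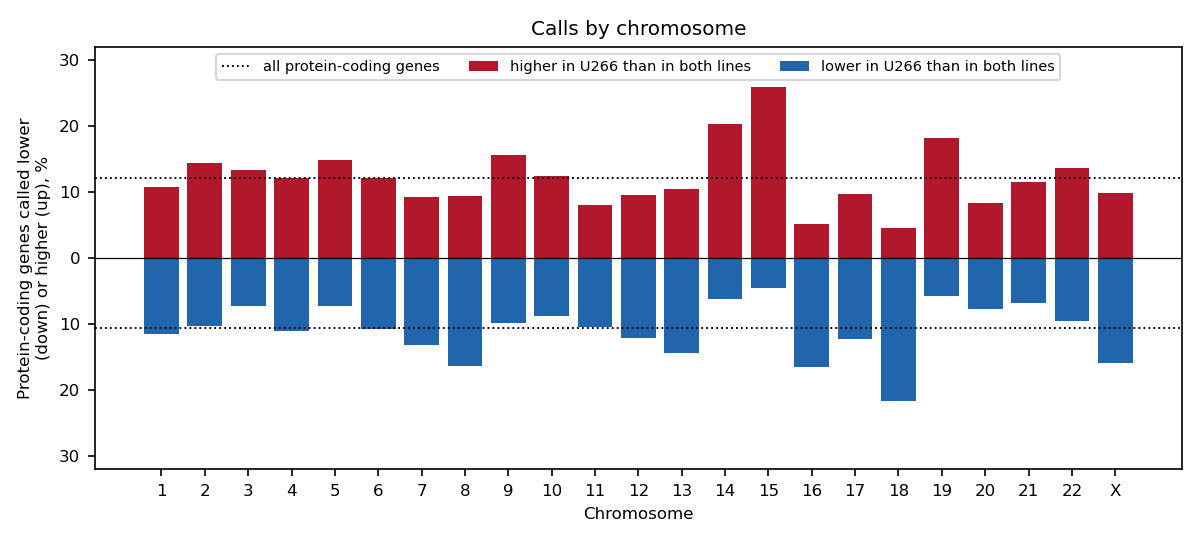
Share of the protein-coding genes of each chromosome called higher (red, upward) or lower (blue, downward) in U266 than in both other lines, in percent; dotted lines give all protein-coding genes (12.2% and 10.6%). Chromosome 15 has the tallest upward bar, 25.9%, and chromosome 18 the longest downward bar, 21.7%.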

How the data were processed

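The authors deposited 1 table of log2 values for 53617 probe sets on 6 arrays. Affymetrix Expression Console 1.3.0 made them, per the submitters' processing notes; how they were normalized and on which build is not given in the sources used here. Array medians were 3.61 to 3.66, no detection calls were used, and the number of arrays limits precision.

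The platform annotation gave 16098 probe sets 1 gene symbol, 0 several, and left 37519 unnamed here. They stood for 14884 genes. Where a gene had more than 1 probe set (779 genes), the brightest on average over 6 arrays was kept. All gene identifiers matched RefSeq (GRCh38.p14).

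In R 4.3.3 with limma 3.58.1, lmFit and eBayes were run on all named genes without a filter, with line and treatment as terms (2 residual and 4.12 prior degrees of freedom). Tests were two-sided. The code was tested on simulated data. Each line has a control and a mimic array, per the labels, which name no replicates, and treatment is in the fit.

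Members and lists were chosen with earlier results of these data known. The 38 lists came from general knowledge and held 1036 symbols, of which 606 were among the named genes. Counts and shares are over these members alone, such as 12 of 27 listed p53 pathway genes and 18 of 33 listed NF-kB genes. A naming rule picked 211 genes. They were the 5 markers, the 15 protein-coding genes farthest in each direction and up to 4 called members per list and direction. Members of the D cyclin, MAF, t(4;14) and MYC lists were added, and up to 4 microRNA and 3 other non-coding genes per direction. Not all of the 211 are named in the text, and some other genes are named there too. The integrin and amino acid transporter lists had no named gene and were not analysed here.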

Additional observations from a re-analysis of the deposited data

How the results depend on the processing

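The counts of genes above both lines (1648) and below both (1368) kept within 1.5 times under a trended or robust variance prior, filters on the mean or highest line level, median centring, quantile normalization and the mean of a gene's probe sets. Without the treatment term, 1686 genes were higher and 1416 lower, and 188 of 188 called genes picked by the naming rule kept their call. Leaving out 1 array at a time gave 1172 to 1406 higher and 1041 to 1105 lower genes, 4436 to 5590 genes between U266 and RPMI8226 and 3958 to 5427 between U266 and KMS11. A lone array was then assumed to vary like the other lines, and 158 to 168 of the 188 kept their call. The setting that moved the counts most among fits was pooling RPMI8226 and KMS11, which gave 654 higher and 461 lower genes because their difference becomes part of the spread, and kept 106 of the 188. Requiring 2-fold gave 479 higher and 386 lower genes, 2129 between U266 and RPMI8226 and 1883 between U266 and KMS11. None of the 188 called genes picked by the naming rule changed sign under any of these settings. The 23 uncalled ones were not checked for a change of sign. Low values have no detection call, so the size of a difference from a gene near the bottom of the scale is uncertain.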

Other observations

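Genes that neighbour each other in RefSeq order were in places called together in U266, a description made after the calls were seen. Beside TXK and TEC, called pairs with one of the 30 farthest protein-coding genes included EDNRB with POU4F1 and FOXR2 with RRAGB, both higher. PHLPP1 with BCL2, STK39 with CERS6 and CLIC2 with SPRY3 were pairs called lower. Runs of 40 protein-coding genes were also counted, and those named here were picked from all runs for their many calls. Over all protein-coding genes with a chromosome, 12.2% were higher and 10.6% lower. The run of chromosome 15 from GPR176 to TTBK2 held 18 higher (45%) and 1 lower (2.5%). Its median difference from the mean of the other lines was 0.42 log2 units. The next run, from UBR1 to EID1, held 16 higher (40%) and 0 lower. On chromosome 19, the run from QTRT1 to ZNF564 held 17 higher (42.5%) and 2 lower (5%), with a median of 0.45. That from TIMM44 to KRI1 held 15 higher (37.5%) and 2 lower (5%), with a median of 0.37. The first run of chromosome X, from GTPBP6 to TXLNG, held 2 higher (5%) and 14 lower (35%), with a median of -0.37.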
